A study of Mus musculus with 3 samples.

Results

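Rbm20, Rbm24 and Rbm38, RNA-binding proteins of striated muscle, were followed through skeletal muscle RNA of mice that carry a missense change in Rbm20. All rows of the exonic parts table that bear 1 of these 3 gene names were taken, 3 of 52041 named genes and 55 of 469293 parts, with 19 in Rbm20, 13 in Rbm24 and 23 in Rbm38. Such a part runs from 1 annotated exon boundary to the next. The 3 libraries came from 12-week-old mice, with a single library for each genotype at Rbm20 I538T, a change made with CRISPR/Cas that matches I536T in people, per the labels. The wild-type library carries no edited copy, the heterozygous library 1 copy and the homozygous library both. The labels name further ages, which were not analysed here, and do not say which muscle was taken. With 1 library per genotype there is no replicate check, and genotypes are compared without p-values. The 95% intervals describe counting error alone, since PCR copies cannot be told from separate molecules and a read may count in neighbouring parts. Values given as 3 numbers follow the order wild type, heterozygous, homozygous.

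RBM20 is a splicing repressor that holds exons out of Ttn, the titin gene, and out of other sarcomere and calcium-handling genes in heart and skeletal muscle. It has an RNA recognition motif (RRM) and a domain rich in arginine and serine, and missense changes in it cause dilated cardiomyopathy. RBM24 and RBM38 are close relatives of each other, each with 1 RRM. RBM24 promotes inclusion of muscle exons and is needed for sarcomere assembly in heart and skeletal muscle. RBM38 is a target of p53, and both proteins bind GU-rich sites and stabilise transcripts such as Cdkn1a during muscle differentiation.

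The edited codon lies in exon 6 of the Rbm20 coding transcript (ENSMUSG00000043639, plus strand), which has 14 exons and codes for 1199 residues. The coding base change T1613C, counted from the first base of the start codon, falls at chromosome 19 position 53832728 on GRCm38 and turns the codon ATT into ACT. Exon 6 is shown from GENCODE M21, as reference sequence, with codon 538 in capitals, because read counts over this exon are compared between genotypes.
Rbm20 exon 6, chr19:53832646-53832789, plus strand: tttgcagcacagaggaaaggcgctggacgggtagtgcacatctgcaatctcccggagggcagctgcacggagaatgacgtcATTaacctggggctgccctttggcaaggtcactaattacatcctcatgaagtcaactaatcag
The table counts reads per part and holds no base calls, so edited and unedited copies were not separated and the genotypes themselves were not checked here.

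Rbm24 (ENSMUSG00000038132, chromosome 13) and Rbm38 (ENSMUSG00000027510, chromosome 2) share an exon layout. Both main coding transcripts have 4 exons, and exons 2 and 3 are 124 and 55 bases long in each gene. Exon 2 is shown for both, with the bases that differ in capitals, to show how far reads of these relatives can be told apart.
Rbm24 exon 2, chr13:46420275-46420398, plus strand: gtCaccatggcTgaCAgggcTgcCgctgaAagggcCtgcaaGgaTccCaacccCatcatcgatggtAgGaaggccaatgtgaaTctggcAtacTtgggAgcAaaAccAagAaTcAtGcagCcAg
Rbm38 exon 2, chr2:173022792-173022915, plus strand: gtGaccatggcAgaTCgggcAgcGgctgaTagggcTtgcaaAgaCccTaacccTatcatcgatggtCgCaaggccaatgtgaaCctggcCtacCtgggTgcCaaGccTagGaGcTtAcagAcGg
Of the 124 bases, 97 were identical (78.2%), and the longest run without a difference was 14 bases. Exon 3 was identical at 38 of 55 bases (69.1%). The longest run shared anywhere by the main transcripts was 23 bases.

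The libraries held 239837797, 265358773 and 215923385 inclusion reads. Levels are given as RPM, the inclusion reads of a gene per 1000000 inclusion reads of its library. Skeletal muscle identity was clear from fast-fibre markers, which summed to 159963, 145325 and 188234 RPM. The 8 heart muscle markers in the table summed to 42.9, 17.1 and 16.04 RPM, nearly all from Myh6 (16.9, 5.24 and 1.94 RPM), Tnnt2 (11.3, 7.65 and 6.10 RPM) and Myl4 (14.2, 3.90 and 7.74 RPM), while Nppb and Nkx2-5 had no reads. Slow-fibre markers differed between the libraries. All 8 measured were at least 2-fold lower than wild type in the homozygous and 6 of 8 in the heterozygous library. Of all measured genes, 10.1% and 3.14% were. The list of 9 slow-fibre markers summed to 2326, 897 and 135 RPM. In bulk RNA, fewer cells of a type and less RNA per cell cannot be told apart.

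Rbm20, the edited gene, had 3110 reads (12.97 RPM) in wild type, 2866 (10.8 RPM) in the heterozygous library and 641 (2.97 RPM) in the homozygous one. The homozygous library was low and the others lay near each other. Homozygous RPM was 4.37-fold lower than wild type (95% interval 4.01 to 4.76) and 3.64-fold lower than heterozygous (3.34 to 3.97). Heterozygous RPM was 1.20-fold lower than wild type (1.14 to 1.26), a size that did not keep its direction when the gene was divided along its length. At 2-fold or more, 10.1% of 9427 measured genes (5 or more RPM in at least 1 library) were lower in homozygous than in wild type, 3.14% in heterozygous than in wild type, and 14.5% in homozygous than in heterozygous muscle, where 1.5% were higher. Among these genes Rbm20 stood at percentile 44.4, 35.6 and 8.2. Summed levels of other marker lists differed in both directions. Lowest in the homozygous library were 124, 155 and 45.3 RPM for 8 Schwann cell markers, 424, 534 and 203 RPM for 9 macrophage markers, 3368, 4496 and 1777 RPM for 6 fibroblast markers, and 4586, 8598 and 2630 RPM for 8 fat cell markers. Exceptions, lowest in wild type, were the macrophage markers Cd68 (9.38, 20.2 and 10.9 RPM) and Cd163 (3.81, 7.02 and 4.21 RPM) and the Schwann cell marker Sox10 (0.10, 2.98 and 0.50 RPM). Red blood cell markers (7159, 8792 and 4494 RPM), endothelial markers (144, 135 and 101 RPM) and satellite cell markers (27.6, 34.4 and 26.7 RPM) were also lowest there. Neutrophil markers were lowest in wild type, at 10.7, 110.3 and 85.9 RPM. Of 6 measured, 4 were at least 2-fold higher in the homozygous library than in wild type, beside 2.05% of all measured genes. Retnlg (5.67, 8.05 and 3.21 RPM) and Csf3r, under the 5 RPM limit (1.73, 4.18 and 0.37 RPM), were lower in homozygous muscle than in wild type. Also lowest in wild type were the sums of cartilage and epidermis markers (14.8, 55.1 and 21.9 RPM), and of B and T cell markers (4.12, 7.002 and 6.13 RPM). The cartilage genes Comp (5.98, 27.8 and 7.60 RPM) and Chad (1.85, 17.8 and 8.02 RPM) followed that sum. Among epidermal keratins, Krt10 (6.15, 5.70 and 4.27 RPM) and Krt14 (0.77, 0 and 0 RPM) were highest in wild type, and Krt1 and Krt5 were barely detected. The part of these cell types and of slow fibres in the Rbm20 value was not tested.

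Rbm24, the muscle exon activator, had 14204 (59.2 RPM), 15254 (57.5 RPM) and 12002 reads (55.6 RPM). These 3 levels lay within a narrow range. The homozygous to wild-type ratio was 0.939 (0.916 to 0.962) and the heterozygous to wild-type ratio 0.971 (0.949 to 0.993). Rbm38, the p53 target, had 5229 (21.8 RPM), 5024 (18.9 RPM) and 4311 reads (19.97 RPM). Its ratios to wild type were 0.916 (0.879 to 0.954) in homozygous and 0.868 (0.835 to 0.903) in heterozygous muscle. On the log2 scale of RPM + 1, Rbm24 differed from wild type by -0.09 and -0.04 and Rbm38 by -0.12 and -0.19 (homozygous, then heterozygous), while the median of all measured genes differed by -0.18 and 0.10. Neither gene passed 2-fold, where 10.1% of genes were lower and 2.05% higher in homozygous muscle. The sign for homozygous against wild type flipped for both under median-of-ratios scaling, to 0.10 for Rbm24 and 0.06 for Rbm38.

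**Figure D1:**
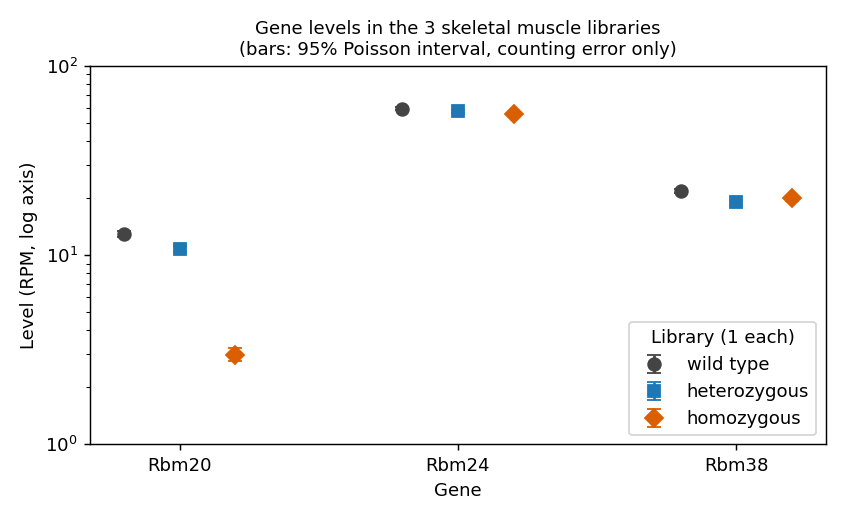
Level of Rbm20, Rbm24 and Rbm38 in RPM on a log axis, 1 point per library, with 95% Poisson intervals that cover counting error only. Rbm20 is at 12.97 and 10.8 RPM in the wild-type and heterozygous libraries and at 2.97 RPM in the homozygous library, while Rbm24 stays between 55.6 and 59.2 RPM and Rbm38 between 18.9 and 21.8 RPM.

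Compared per length, Rbm24 was the most abundant of these genes in each library. Reads in its coding parts came to 15.1, 18.9 and 16.6 per kilobase per 1000000 inclusion reads, counting each part with the bases that PSI adds for reads across its ends. Rbm38 followed at 9.78, 7.79 and 8.98. Rbm20 was lowest at 1.04, 1.38 and 0.0860. The order was the same in all 3 libraries, but no replicate spread is at hand to set against the steps.

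The genotypes did not differ evenly along the Rbm20 transcript. Its coding parts held 1249, 1832 and 93 reads. These were 40.2% (exact binomial 38.4 to 41.9), 63.9% (62.1 to 65.7) and 14.5% (11.9 to 17.5) of the gene's reads. Rbm24 had 27.4%, 35.3% and 32.1% of its reads in coding parts, and Rbm38 had 65.5%, 60.1% and 65.6%. The median over 8173 measured genes with coding parts was 52.1%, 54.7% and 55.3%.

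In the homozygous library, Rbm20 exons 2, 3, 4, 5 and 9 had 0 reads. Exon 2 held 164 reads in wild type and 566 in heterozygous muscle, and exon 9, the 622-base exon at 53843223 to 53843844, held 177 and 307. Taking 3 reads as the floor for a count of 0 in the homozygous library, exon 9 was at least 53.1-fold lower than in wild type. Exon 6, with the edited codon, had 80, 140 and 4 reads, a homozygous to wild-type ratio of 0.0555 (0.0148 to 0.148). Exons 7 and 8 had 14 and 11 homozygous reads against 63 and 46 in wild type. Exons 10 to 13 had 74, 224, 138 and 134 reads in wild type against 23, 11, 13 and 17 in the homozygous library. Exon 1 differed in the other direction, with 32, 207 and 80 reads, a homozygous to wild-type ratio of 2.78 (1.82 to 4.33). The last part, 1700 bases at 53865381 to 53867080, extends the 3′ UTR and is annotated only in a transcript marked for nonsense-mediated decay. It held the most reads of the gene, 1350, 609 and 436, with a homozygous to wild-type ratio of 0.359 (0.321 to 0.400).

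Counted over parts, 7 of the 17 Rbm20 parts with at least 20 wild-type reads had 0 reads in the homozygous library, and 0 of 17 in the heterozygous library. Over the whole table, 8.68% of 186167 such parts had 0 reads in homozygous and 7.33% in heterozygous muscle. Against the heterozygous library, 6 of 16 Rbm20 parts were at 0 in the homozygous library, beside 9.43% of all parts. Within genes whose homozygous RPM lay within 2-fold of that of Rbm20, the homozygous share was 11.7% of 31834 parts. Of parts with at least 20 wild-type reads, 0 of 11 in Rbm24 and 2 of 13 in Rbm38 were at 0 in the homozygous library. Against the heterozygous library these counts were 0 of 10 in Rbm24 and 5 of 16 in Rbm38, the latter close to the 6 of 16 of Rbm20. Parts of 1 gene share molecules and are not independent.

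Heterozygous muscle differed from wild type in opposite directions on the 2 sides of intron 9, a border chosen after the values were seen. In exons 1 to 9, all 10 parts were higher in the heterozygous library, with 711 reads (2.96 RPM) in wild type and 1777 (6.70 RPM) in heterozygous muscle, a ratio of 2.26 (2.07 to 2.47). The ratio was largest in exon 1, at 5.85 (4.02 to 8.77), then 3.12 (2.62 to 3.73) in exon 2, and 1.57 (1.30 to 1.90) in exon 9. In exons 10 to 14, all 5 parts were lower, with 1024 reads (4.27 RPM) in wild type and 466 (1.76 RPM) in heterozygous muscle, a ratio of 0.411 (0.368 to 0.459). The last part of the 3′ UTR had a ratio of 0.408 (0.370 to 0.449). The small difference in the gene's total level is the sum of these opposite differences.

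**Figure D2:**
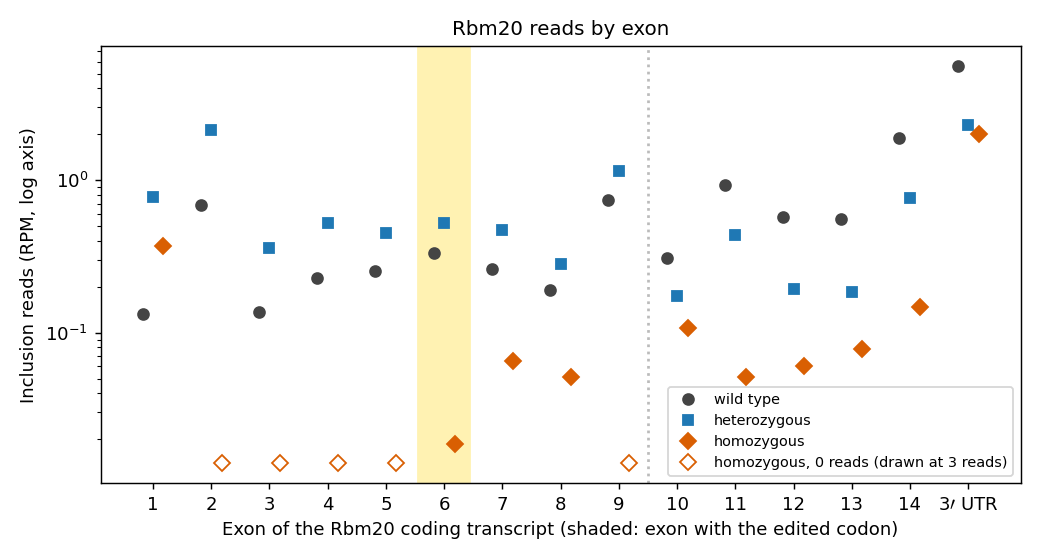
Reads of Rbm20 by exon of the coding transcript, followed by the last part of the 3′ UTR, in RPM on a log axis, 1 marker per library; open markers are exons with 0 reads, drawn at the level of 3 reads. The heterozygous library lies above wild type in exons 1 to 9 and below it from exon 10 on (dotted line), and the homozygous library has 0 reads in exons 2 to 5 and 9.

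A stretch inside the gene also held reads in the heterozygous library alone. Gm16299, a gene annotated on the minus strand within Rbm20, had 542 reads in the heterozygous library over its 2729-base exon at 53819354 to 53822082, and 0 in the others. That exon lies in intron 5 of Rbm20 on the other strand. The sources used here do not say whether reads were counted by strand, so reads of Gm16299 and of unspliced Rbm20 cannot be told apart.

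Splicing was compared as PSI (percent spliced in), the share of transcripts that hold a part, from inclusion reads over it and exclusion reads that skip it. Of the 55 parts, 16 had exclusion reads in any library, 3 in Rbm20, 5 in Rbm24 and 8 in Rbm38, and the other 39 had none. The rule for a call was a PSI gap of 20 percentage points or more, with 10 or more reads in both libraries. In homozygous against wild type, 0 of 38 measured member parts were called, beside 5.57% of all 204571 measured parts. In heterozygous against wild type, 1 of 52 was called, beside 5.78% of all parts. In homozygous against heterozygous, 0 of 38 were called, beside 5.52%. Only 9 of the 19 Rbm20 parts had 10 reads in the homozygous library, so splicing of most of that gene was not detectable at this depth there. None of those 9 had exclusion reads in any library, so no alternative part of Rbm20 was compared in homozygous muscle.

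The called part was in Rbm20, the 139-base part at 53793308 to 53793446, the untranslated first exon of a short alternative transcript, which lies between exons 1 and 2. It had 24, 14 and 0 inclusion reads and 10, 47 and 0 exclusion reads. Wild-type PSI was 53.8% (36.1 to 70.6) and heterozygous PSI 12.6% (7.43 to 20.7), a difference of -41.2 points (-58.7 to -21.8). Exon 1, the only annotated Rbm20 exon upstream of it and so the start of any read that skips it, had 32 and 207 reads in these libraries.

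The Rbm20 transcript annotated for nonsense-mediated decay has an extra exon of 46 bases, and its stop codon lies at 53853616 in the next exon. That exon is shown because it is the annotated route to an unproductive Rbm20 transcript.
Rbm20 decay exon, chr19:53852354-53852399, plus strand: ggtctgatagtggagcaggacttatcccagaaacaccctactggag
It was barely used, with 1, 0 and 0 inclusion reads against 66, 29 and 3 exclusion reads. Wild-type PSI was 1.11% (0.20 to 6.03), and the heterozygous PSI of 0% had an upper bound of 8.93%. In homozygous muscle, with 3 reads in all, the interval ran to 48.7%, so its use was not detectable at this depth there. A 13-base extension of exon 9 in the same transcript had 0 inclusion reads in every library, with 23, 53 and 0 exclusion reads.

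Rbm24 had 1 alternative exon that was clearly used, a 113-base cassette between exons 3 and 4, annotated in non-coding transcripts. It is shown because it was the most used alternative exon of Rbm24. Read in the frame of exon 3, it reaches a stop codon, TAA, at its bases 20 to 22, in capitals.
Rbm24 cassette exon, chr13:46422276-46422388, plus strand: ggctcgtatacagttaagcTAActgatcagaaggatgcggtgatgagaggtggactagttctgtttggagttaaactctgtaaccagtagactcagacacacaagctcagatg
It was included by 121, 224 and 176 reads and skipped by 401, 554 and 413. PSI was 13.9% (11.7 to 16.6), 17.8% (15.7 to 20.2) and 18.6% (16.1 to 21.4). Both knock-in libraries were above wild type, by 3.89 points (0.50 to 7.18) in heterozygous and 4.68 points (1.04 to 8.29) in homozygous muscle, far under the 20 points of the rule.

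The other alternative parts of Rbm24 stayed at or under 3.88% PSI in every library. The 183-base part before exon 2, annotated in a retained-intron transcript, had a PSI of 3.88%, 1.47% and 0.78%. The 29-base part before exon 3 had 23, 0 and 1 inclusion reads and a PSI of 3.49%, 0% and 0.16%. Along the Rbm24 transcript, the 5 coding parts were each higher in both knock-in libraries than in wild type, with ratios of summed RPM of 1.25 (1.20 to 1.30) in heterozygous and 1.099 (1.05 to 1.15) in homozygous muscle. In homozygous muscle alone, the intervals of exon 2, 1.04 (0.952 to 1.14), and exon 3, 1.06 (0.959 to 1.17), included 1. The remaining coding parts are touching pieces of exon 4. The last untranslated part, 1678 bases at 46429418 to 46431095, was lower in both, at 28.4, 20.96 and 23.8 RPM. Exon 1 was at 8.03, 7.96 and 6.08 RPM, with a homozygous to wild-type ratio of 0.757 (0.705 to 0.812).

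Rbm38 uses a second splice site inside exon 1 that drops the last 23 bases of that exon and shifts the frame. The transcript that does so is annotated for nonsense-mediated decay, with a stop codon at 173022818. The 23 bases are shown because that decay transcript lacks them. Another transcript annotated for decay keeps them and runs on into the next 136 bases, so their PSI is not the share of coding transcripts.
Rbm38 end of exon 1, chr2:173022248-173022270, plus strand: gcaagtcccgcggctacggcttc
They had 424, 315 and 332 inclusion reads and 45, 21 and 31 exclusion reads. PSI was 88.9% (85.5 to 91.6), 92.7% (89.2 to 95.2) and 90.1% (86.3 to 92.9). The differences from wild type, 3.83 points (-0.63 to 8.02) in heterozygous and 1.20 points (-3.43 to 5.61) in homozygous muscle, held 0 within their intervals.

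In the last exon of Rbm38, parts of 204 and 265 bases that join each other at 173033710 to 173034178 and hold the stop codon had exclusion reads in the homozygous library alone. Each had 0, 0 and 30 exclusion reads, beside 288, 370 and 342 inclusion reads in the first and 328, 383 and 393 in the second. PSI in homozygous muscle was 81.7% (75.5 to 86.6) and 81.3% (74.97 to 86.2), against 100% in both others, which is 18.3 and 18.7 points lower and just under the threshold. The equal exclusion counts mean that the pair may rest on the same reads.

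Intron 1 of Rbm38 held few reads. Its 4 parts between exons 1 and 2 were at 3.19% PSI or less in every library, with 48, 50 and 6 inclusion reads over all 4. The 136-base part is also annotated in a longer exon 1, and the 57-base part in an alternative first exon. These reads therefore need not all come from a retained intron. Parts just upstream of the main transcript start, at 173021672 to 173021901, together with the first 11 bases of the transcript, held 54, 179 and 0 reads. Heterozygous RPM of this block was 2.996-fold that of wild type (2.20 to 4.14). Exons of Gm20490 and Gm14453, annotated on the minus strand, overlap 3 Rbm38 parts, and the table gives those exons reads of their own. The 72-base Gm20490 exon that overlaps the end of exon 2 had 490, 465 and 382 reads, so the values of these 3 Rbm38 parts are uncertain. By exon, Rbm38 was at 7.05, 5.42 and 5.68 RPM in exon 1 and at 7.45, 7.19 and 8.20 RPM in the last exon. Exon 1 was thus lower in both knock-in libraries than in wild type, with ratios of 0.769 (0.716 to 0.826) and 0.806 (0.748 to 0.868). The last exon had ratios to wild type of 0.966 (0.905 to 1.03) in the heterozygous and 1.1008 (1.03 to 1.18) in the homozygous library.

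**Figure D3:**
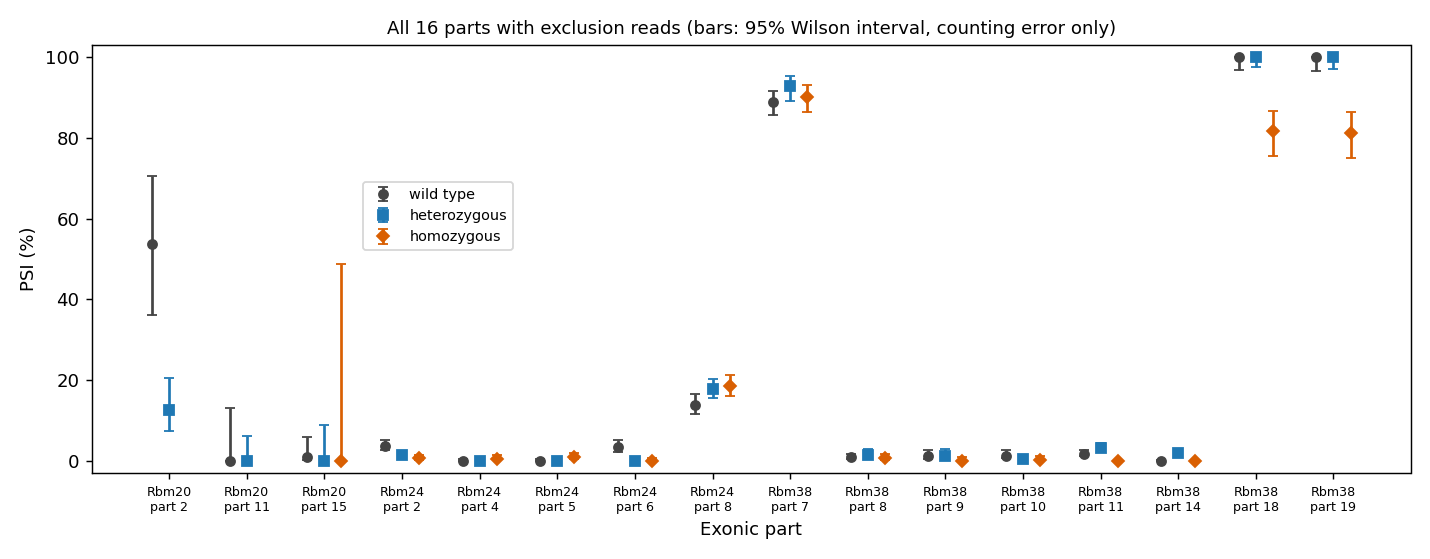
PSI in percent of all 16 parts of Rbm20, Rbm24 and Rbm38 with exclusion reads, 1 marker per library with 95% Wilson intervals for counting error; libraries with no reads have no marker. Rbm20 part 2 (the alternative first exon) separates wild type from heterozygous muscle, Rbm38 parts 18 and 19 are lower in homozygous muscle by 18.3 and 18.7 points, and the Rbm24 cassette (part 8) lies at 13.9 to 18.6%.

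The other RBM genes of the table, a family named for the RNA-binding motif, numbered 33, of which 22 were measured. In homozygous against wild type, 0 were 2-fold higher and 1 was 2-fold lower, with a median log2 ratio of -0.31. Over all measured genes, 2.05% were 2-fold higher and 10.1% lower, and the median was -0.18. The gene that passed was Rbms3, at 16.6, 11.4 and 6.34 RPM (log2 ratio -1.27). Next came Rbm4b at -0.83 and Rbms1 at -0.77. In heterozygous against wild type, 0 of 22 passed 2-fold in either direction and the median was 0.08, beside 5.95% of all genes higher and 3.14% lower. A called splicing difference was found in 17 of 28 of these genes in homozygous against wild type and in 12 of 30 in heterozygous against wild type, beside 23.6% and 24.3% of all genes with a measured part. Rbm20, Rbm24 and Rbm38 had such a part in 0 of 3 and in 1 of 3 genes. Genes with more measured parts have more chances to hold a called part, and the number of parts was not matched in these shares.

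**Figure D4:**
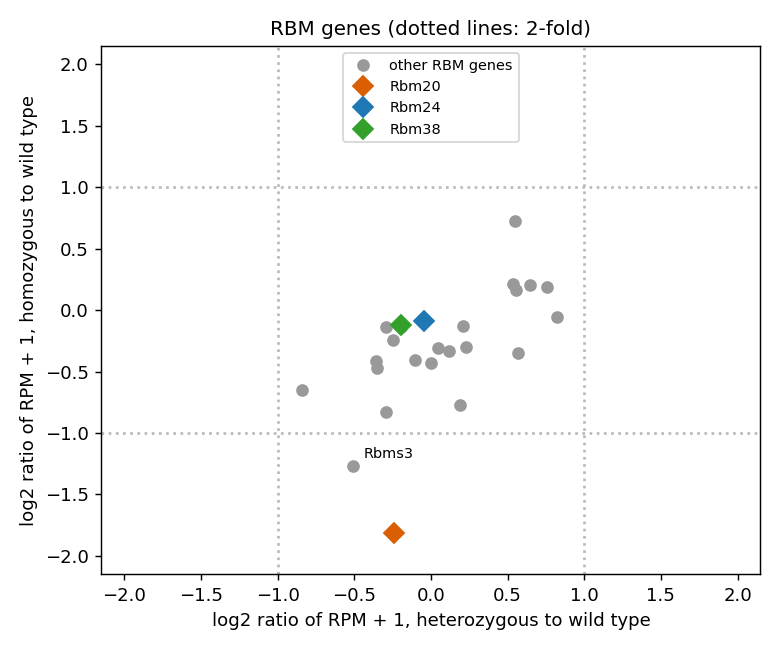
Log2 ratio of RPM + 1 to wild type in heterozygous (x axis) and homozygous muscle (y axis) for Rbm20, Rbm24, Rbm38 and the 22 other measured RBM genes, with dotted lines at 2-fold. Rbm20 is at -1.82 and Rbms3 at -1.27 in homozygous muscle, below the 2-fold line, and Rbm24 and Rbm38 lie near 0 on both axes.

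Genes known from heart as RBM20 splicing targets mostly stayed within 2-fold of wild type. Of 30 measured genes, 1 was 2-fold higher and 2 were lower in homozygous muscle, with a median log2 ratio of 0.15, beside 2.05% and 10.1% of all genes and a median of -0.18. Fnbp1, which bends membranes, was at -1.40, the neurotrophin receptor Ntrk3 at 1.36 from 0.36 RPM in wild type, and Enah, an actin regulator, at -1.13. In heterozygous muscle 2 were higher and 0 lower, beside 5.95% and 3.14%. A called part was present in 20 of 32 genes in both comparisons with wild type, beside 23.6% (homozygous) and 24.3% (heterozygous) of all genes with a measured part, again without matching the number of parts per gene. The largest of those in homozygous muscle, ranked by the bound of the interval nearest 0, were in Slmap, Lmo7 and Fnbp1. The Slmap part, 123 bases on chromosome 14 at 26429788 to 26429910, had a PSI of 0%, 0% and 81.9%. The Lmo7 part, 720 bases on chromosome 14 at 101886937 to 101887656, had 31.2%, 100% and 100%. The Fnbp1 part, 305 bases on chromosome 2 at 31032694 to 31032998, had 13.1%, 100% and 100%, with 4 inclusion and 8 exclusion reads in wild type.

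Splicing targets of RBM24 and RBM38 included 11 genes, all measured, and none passed 2-fold in either direction in homozygous or heterozygous muscle. The shares over all measured genes were 10.1% lower and 2.05% higher in homozygous, and 3.14% lower and 5.95% higher in heterozygous muscle. With 11 genes, a count of 0 is near these shares. Their median log2 ratio was 0.06 in homozygous and 0.10 in heterozygous muscle, beside -0.18 and 0.10 over all measured genes. Naca, which has a long muscle form that takes part in myofibril assembly, had the log2 ratio farthest from 0 in homozygous muscle, -0.68, followed by Usp25 at 0.55 and Nrap at -0.40. A called part was present in 5 of 11 genes in homozygous and 4 of 11 in heterozygous muscle against wild type, beside the same 23.6% and 24.3% of all genes, unmatched for parts. Nrap, a myofibril assembly protein, had a 114-base part on chromosome 19 at 56344012 to 56344125 with 605, 706 and 439 inclusion and 0, 0 and 148 exclusion reads, and a PSI of 100%, 100% and 61.3%. Fxr1, an RNA-binding protein with muscle exons, had an 87-base part on chromosome 3 at 34058082 to 34058168 at 65.2%, 60.3% and 35.9%. Its difference in homozygous against wild type was -29.3 points (-33.9 to -24.5). Ttn, listed as a target of both RBM20 and RBM24, had its highest ranked part for homozygous against wild type, 78 bases on chromosome 2 at 76827483 to 76827560, at 23.4%, 18.9% and 50.2%. In both comparisons with the heterozygous library its highest ranked part was another, 288 bases at 76890907 to 76891194, at 28.7%, 100% and 23.8%. Pdlim5, a Z-disc adaptor that RBM20 and RBM24 are both known to splice, had a 132-base part on chromosome 3 at 142281852 to 142281983 at 25.2%, 37.8% and 65.2%, a difference of 40.1 points (22.4 to 54.6) in homozygous against wild type.

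Transcripts that RBM24 or RBM38 are known to bind for stability or translation numbered 5 measured of 8 listed. Cyclin D1, Ccnd1, was at 9.13, 10.1 and 2.69 RPM and was the only 1 of the 5 past 2-fold in homozygous muscle (log2 ratio -1.46), and 0 passed in heterozygous muscle. Of all measured genes, 2.05% were 2-fold higher and 10.1% lower in homozygous muscle, and 5.95% and 3.14% in heterozygous muscle. Trp53, the p53 gene, was at 15.2, 12.1 and 7.20 RPM (-0.98) and Myc at 4.47, 6.30 and 2.43 RPM (-0.67). Cdkn1a, the cell cycle inhibitor p21, was at 24.1, 35.7 and 26.9 RPM and Mdm2, the p53 ligase, at 19.997, 25.4 and 23.5 RPM. Of 13 measured muscle transcription regulators, 1 was 2-fold higher and 1 lower in homozygous muscle, with a median log2 ratio of 0.28 beside -0.18 over all genes, and 1 was higher and 0 lower in heterozygous muscle. Six4 was at 4.299, 4.17 and 10.3 RPM (1.098) and Tead1 at 53.0, 34.0 and 23.8 RPM (-1.12), while Tbx15 was at 0.88 on the log2 scale. Mef2c, a core muscle regulator, was at 387, 373 and 380 RPM.

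The genes whose pattern over the 3 libraries was most like that of each member were found by the distance between pairs of log2 ratios to wild type, among genes within 4-fold in mean RPM. For Rbm20 these were Manba, a lysosomal mannosidase (distance 0.02), Pde8a, a cAMP phosphodiesterase (0.04), and Gja1, the gap junction protein connexin (0.07), of 7030 candidates. Pde8a was at 12.9, 10.7 and 3.07 RPM, against 12.97, 10.8 and 2.97 for Rbm20. For Rbm24 they included Agbl5 (0.0017) and Gstk1 (0.013) of 4427 candidates. For Rbm38 they were Nutf2-ps1, Snrpd2 and Xaf1 of 7191, and the pseudogene Nutf2-ps1 is uncertain because it may share reads with its parent gene. With 3 libraries, such likeness rests on 2 ratios per gene.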

How the data were processed

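The authors deposited, per the file headers, raw counts of inclusion and exclusion reads for each exonic part and a PSI fraction per library, with 1 library per genotype. Bowtie 1.1.1, TopHat2 2.0.14, Trimmomatic 0.32, cutadapt 1.1 and the build GRCm38 are named, per the submitters' processing notes, without their roles. The sources used here name no counting program. A SMART-seq kit for low RNA input was used, per the labels' protocols. The deposited PSI fraction was recomputed within 5e-07 as inclusion reads over the part length plus 131, divided by that value plus exclusion reads over 131.

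Each PSI has a Wilson interval, computed on the share of inclusion reads and then converted to PSI, and each difference a Newcombe interval. Ratios of RPM have exact conditional binomial intervals. Genes merged for overlap were left out of gene counts. Parts were annotated with GENCODE M21 on GRCm38, and printed sequences come from its transcripts. No test between genotypes was possible. The size rule and intervals were tested on simulated data. In the lists, the 3 genes with the largest ratio in homozygous against wild type were named, in splicing lists also the 3 top-ranked parts; other genes named there (Cdkn1a, Mdm2, Mef2c, Pdlim5) were chosen after their values were seen. A gene near Rbm24 in pattern is not reported here. The members and lists were chosen with earlier results of these data known. Alternatives are in the closing section. Computation used Python 3.11.15 with scipy 1.17.1, pandas 2.3.3, numpy 2.4.6 and, for figures, matplotlib 3.10.9.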

Additional observations from a re-analysis of the deposited data

How the results depend on the processing

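No paired analysis was possible because each genotype has 1 library. Values are log2 ratios to wild type on RPM + 1 unless said otherwise. Rbm20 in homozygous muscle (-1.82) stayed more than 2-fold lower in every alternative: -2.13 with no pseudocount, -1.67 with median-of-ratios size factors, -2.12 from coding parts, -2.097 without its most read part and -1.40 from exons 1 to 9. The added 1 RPM shrinks the ratios of such small blocks: without it, exons 1 to 9 were 5.87-fold and coding parts 12.1-fold lower, against 4.37-fold for the gene. In heterozygous muscle (-0.24) its sign turned with the parts counted: 0.35 from coding parts, 0.19 without the most read part, 0.96 from exons 1 to 9, -0.94 from exons 10 to 14, and -0.34 with size factors. The exon settings were chosen after seeing the data. Rbm24 in homozygous muscle moved from -0.09 to 0.10 with size factors, 0.033 with totals that leave out the 20 most read genes, 0.13 from coding parts and 0.044 without its most read part. In heterozygous muscle it moved from -0.04 to -0.15, -0.10, 0.31 and 0.24 in the same order. Rbm38 moved in homozygous muscle from -0.12 to 0.060 with size factors and -0.0022 with those totals, and in heterozygous muscle from -0.19 to -0.30, -0.26 and, from coding parts, -0.30. Size factors shift all genes by 0.19 in homozygous and -0.11 in heterozygous muscle.

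At 10 points, 2 member parts of the homozygous library were called against each of the others, in place of 0; the other settings kept 0, and 1 in heterozygous against wild type. With genes from 1 RPM, 1964 genes passed 2-fold in homozygous and 1715 in heterozygous muscle, against 1144 and 857. Counting parts that touch coding sequence, the coding share was 55.8%, 78.3% and 32.0% for Rbm20, 50.8%, 61.9% and 55.6% for Rbm24, and 80.7%, 77.0% and 81.4% for Rbm38 (wild type, heterozygous, homozygous). The cause of these changes was not tested. Depth limits Rbm20 most: 641 homozygous reads over 19 parts.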
